A study of Homo sapiens with 54 samples.

Results

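The genes described here are 36 genes of the lysosome and of autophagy, out of 27978 genes in the count table of MDA-MB-231 cells. They were chosen by symbol, for what their products do, with a rule that uses no expression value. Earlier results of these data were known when they were chosen, so the choice was not independent of the data. By role they were the lysosomal membrane proteins LAMP1 and LAMP2, the proteases CTSA, CTSB, CTSD, CTSL, CTSZ and TPP1, the glycosidases GLA, GAA, GUSB, HEXA, MANBA and NEU1 with the lipase LIPA, the channel MCOLN1 with the sterol carriers NPC1 and NPC2, the precursors PSAP and GRN, the proton pump genes ATP6V0D1, ATP6V1A, ATP6V1B2, ATP6V1H and ATP6AP1, the transcription factors TFEB and TFE3, and the autophagy genes SQSTM1, MAP1LC3B, GABARAPL1, ULK1, WIPI1, ATG5, ATG7, ATG9A and BECN1. All 36 passed the filter on low counts in each of the 30 comparisons made, so none is missing from the counts below.

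MDA-MB-231 is an established human line of triple-negative breast cancer with a mesenchymal phenotype, and all libraries came from this single line. The cells, grown in DMEM with fetal bovine serum, received Compound Kushen Injection (CKI), an injectable extract of plant roots used in traditional Chinese medicine, or a mixture of its components, at an amount equal to 2 mg/ml of CKI, and poly(A) RNA was sequenced in 54 libraries that formed 18 groups of 3. In batch 1, at 24 h and at 48 h, the groups were untreated cells (UT), CKI, N_2 (CKI lacking oxymatrine and oxysophocarpine), N_3 (CKI lacking macrozamin, oxymatrine and oxysophocarpine), OO (oxymatrine and oxysophocarpine alone) and MOO (macrozamin, oxymatrine and oxysophocarpine alone). In batch 2, at 48 h, they were UT, CKI and CKI lacking a single compound, which was macrozamin in N_Mac, N-methylcytisine in N_Nme, oxymatrine in N_Omt and trifolirhizin in N_Tri. Oxymatrine, oxysophocarpine and N-methylcytisine are quinolizidine-type alkaloids, macrozamin is a glycoside and trifolirhizin is a pterocarpan glycoside.

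Lysosomes are acidic organelles in which proteases, glycosidases and lipases break down material that arrives by endocytosis or by autophagy. The vacuolar H+-ATPase (V-ATPase) pumps the protons that acidify them, and membrane proteins such as LAMP1 and LAMP2 line them. In autophagy, a double membrane closes around cytoplasmic cargo and fuses with the lysosome, with ATG8-family proteins such as MAP1LC3B on the membrane and receptors such as SQSTM1 holding the cargo. TFEB and TFE3 are transcription factors that bind E-box-like sites in the promoters of many lysosomal and autophagy genes, and their activity is controlled mostly by where they sit in the cell and by phosphorylation.

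Promoters were read because TFEB and TFE3 are members. The RefSeq promoter table (assembly GRCh38.p14, 250 bases before to 50 bases after the start of each gene) held 28 of the 36 members. The entries not matched were those of MANBA, ATP6V1H, PSAP, HEXA, LAMP2, ATP6V1B2, ATP6V1A and CTSB. The table held 35116 promoters of 27305 genes, and a gene was counted once if any of its promoters matched. The E-box CACGTG was in the window of 7 of the 28 matched members (25%), compared with 2396 of all 27305 genes (8.77%). The longer form TCACGTG, which contains CACGTG, was in the same number of members (25%) and in 1226 of all genes (4.49%). Both strands were searched for each. The members with a match were LAMP1, CTSA, CTSD, NEU1, GAA, MCOLN1 and ATP6V0D1. A match of letters is no evidence of binding, and a window without one says nothing about the factor.

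The 250 bases before the start are printed for LAMP1 at chr13:113296989-113297238 (plus strand), the member with the most matches, for CTSA at chr20:45891085-45891334 (plus strand) and MCOLN1 at chr19:7522374-7522623 (plus strand), with 2 matches each in the full window, and for NEU1 at chr6:31862822-31863071 (minus strand), a gene that rose strongly with CKI. They run 5′ to 3′ on the strand of the gene, and capitals mark CACGTG.
LAMP1: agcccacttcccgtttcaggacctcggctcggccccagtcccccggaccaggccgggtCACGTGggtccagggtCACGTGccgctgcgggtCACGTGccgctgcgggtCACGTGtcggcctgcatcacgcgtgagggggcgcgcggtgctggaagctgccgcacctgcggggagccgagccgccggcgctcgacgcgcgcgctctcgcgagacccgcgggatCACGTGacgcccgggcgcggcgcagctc
CTSA: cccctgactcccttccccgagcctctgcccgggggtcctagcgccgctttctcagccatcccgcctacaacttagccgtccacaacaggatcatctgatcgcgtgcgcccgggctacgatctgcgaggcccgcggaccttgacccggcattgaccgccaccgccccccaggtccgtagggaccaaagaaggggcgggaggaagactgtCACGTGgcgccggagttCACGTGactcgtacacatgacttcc
MCOLN1: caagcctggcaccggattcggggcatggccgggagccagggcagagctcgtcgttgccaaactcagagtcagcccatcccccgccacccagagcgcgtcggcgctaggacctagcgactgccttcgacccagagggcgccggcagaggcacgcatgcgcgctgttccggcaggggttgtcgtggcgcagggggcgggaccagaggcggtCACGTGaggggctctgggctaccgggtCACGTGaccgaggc
NEU1: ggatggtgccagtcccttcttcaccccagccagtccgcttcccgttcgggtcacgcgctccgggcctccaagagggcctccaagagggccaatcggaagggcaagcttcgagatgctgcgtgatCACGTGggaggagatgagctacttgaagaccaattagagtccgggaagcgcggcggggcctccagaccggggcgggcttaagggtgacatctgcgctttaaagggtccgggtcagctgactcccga

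Library totals ranged from 17673537 to 26138924 counts with a median of 22568700, and the 36 members took 0.859 to 1.79% of the counts of a library. Mesenchymal genes expected of the line (VIM, CD44, AXL, MSN, CAV1 and EGFR) summed to 2058 to 4993 CPM (counts relative to the library total, scaled by TMM factors). Luminal markers summed to 16.3 to 66.0 CPM. Of these, ESR1 reached at most 0.333, PGR 0.0922, FOXA1 2.82 and CDH1 7.19 CPM, whereas EPCAM reached 27.6 and GATA3 45.6 CPM. Fibroblast markers summed to 11.7 to 80.0 CPM. There DCN reached at most 0.723 and LUM 6.73 CPM, whereas COL1A2 reached 44.6 and COL1A1 65.2 CPM. Endothelial markers summed to 6.68 to 24.3 CPM. Leukocyte markers summed to 0.786 to 29.1 CPM, where 3 of the 4 stayed under 1 CPM and CD14 reached 28.9 CPM. In batch 1, 3 libraries stood apart from the rest, namely CKI replicate 1, N_3 replicate 2 and OO replicate 2, all at 24 h. Over 585 genes that separate the batches, and relative to the mean of the other 2 replicates of their group, they lay 0.652, 0.598 and 0.580 of the way towards batch 2. The other 33 libraries of batch 1 gave -0.408 to 0.103 by the same measure, and the 6 lowest were the replicates compared with one of these 3. They are also the 3 libraries whose columns in the count table carry no replicate number. The labels place them in batch 1, and whether they were prepared or sequenced apart from it is not given in the sources used here. The counts at 24 h that rest on them, and the values of the genes named there, are therefore also given without them. Untreated cells at 48 h differed between the batches by -0.92 (CTSZ) to 0.85 (TPP1) log2 for the members, with a median absolute difference of 0.31, so every comparison stays within a labelled batch, carries a batch term or is the interaction between batches.

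The first question was what CKI did to these genes at each time and in each batch. Of the members that passed the test, nearly all were higher with CKI. At 24 h, 16 members rose and 1 fell (edgeR quasi-likelihood test, adjusted p under 0.05 over all genes), at 48 h in batch 1 28 rose and 1 fell, and at 48 h in batch 2 26 rose and 2 fell. Among all genes tested, 38.7% were called at 24 h (19.3% higher and 19.3% lower), 62.5% at 48 h in batch 1 (31.6% higher and 31.0% lower) and 68.4% at 48 h in batch 2 (34.1% higher and 34.4% lower). The share of members called was 47.2%, 80.6% and 77.8%, above these all-gene shares. The members were all well counted, with a mean of 376 counts per library for the lowest. The genes tested reach down to the low-count filter, where changes are harder to call. The part of expression level in this difference was not tested. Called members were mostly higher, while called genes overall were split almost evenly by direction. The median log2 fold change of the members was 0.26, 0.33 and 0.30 in the 3 comparisons, whereas the median of all genes was 0.014, 0.0049 and -0.0012. A level in bulk RNA is a share of the sample's RNA, and less RNA per cell cannot be told apart from fewer cells of a type.

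The 3 CKI comparisons share no library. In all 3, 15 members were called higher, and 15.3% of the 13926 genes tested in each were called higher in all of them. LIPA was the member called lower in all 3, as were 15.7% of genes. The 15 were TPP1, CTSL, GLA, NEU1, MCOLN1, PSAP, ATP6V1A, TFE3, SQSTM1, GABARAPL1, ULK1, WIPI1, ATG7, ATG9A and BECN1. The 24 h count was the least stable. Without CKI replicate 1, which stood apart, it was 22 (21 higher and 1 lower, with 53.0% of all genes called), and ATP6V0D1, ATP6V1H, ATP6AP1, TFEB and MAP1LC3B were added. Without UT replicate 1 it was 11 (30.6% of members and 22.8% of all genes), and without UT replicate 2 also 11 (22.6% of all genes), and TPP1, LIPA, MCOLN1, PSAP, ATG7 and BECN1 were no longer called in either. Without UT replicate 3 or CKI replicate 2 it was 14 (27.1% and 28.4% of all genes). With the batches fitted together at 48 h, 28 members rose and 2 fell, against 71.5% of all genes called.

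The 24 h log2 changes of the proteases without CKI replicate 1 were 0.40 for TPP1 and 0.64 for CTSL. Those of the hydrolases were 1.27 for GLA, 1.23 for NEU1 and -0.29 for LIPA. The other changes were 0.56 for MCOLN1, 0.47 for NPC1, 0.39 for PSAP, 0.65 for ATP6V1A and 0.53 for TFE3. The autophagy genes gave 1.34 for SQSTM1, 0.87 for ATG9A, 0.82 for WIPI1, 0.52 for ULK1, 1.05 for GABARAPL1, 0.50 for ATG7 and 0.27 for BECN1. All of these genes were still called, in the same direction. TPP1 and LIPA moved the most towards 0 and MCOLN1 away from it. Among the genes called only without this library were ATP6V0D1 (0.32) and TFEB (0.36). LAMP2 (0.11) and GRN (0.16) were not called at 24 h either way.

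Marker genes moved with CKI as well. The mesenchymal genes summed to 4467 to 4538 CPM untreated and 2848 to 2925 CPM with CKI at 24 h, to 4008 to 4121 and 2661 to 2707 CPM at 48 h in batch 1, and to 4736 to 4993 and 2658 to 2719 CPM in batch 2. The 6 luminal markers summed to 55.3 to 57.7 CPM untreated and 19.2 to 25.5 CPM with CKI at 24 h, to 58.1 to 61.0 and 19.3 to 22.5 CPM at 48 h in batch 1, and to 39.1 to 41.2 and 16.3 to 17.4 CPM in batch 2. Both sums were lower with CKI, with no overlap. The mesenchymal genes did not all move alike over the 54 libraries. The median of EGFR, 201 CPM, lay above its highest untreated value, 163 CPM. Those of VIM, AXL and CAV1 (831, 673 and 244 CPM) lay below their lowest untreated values (1143, 821 and 673 CPM). Those of CD44 and MSN lay within the untreated range. The 4 fibroblast markers went from 47.7 to 54.6 CPM untreated to 21.7 to 38.5 CPM with CKI at 24 h and from 60.4 to 63.4 to 33.5 to 34.1 CPM at 48 h in batch 1, and overlapped in batch 2 (27.9 to 35.7 and 26.4 to 29.0 CPM). The 4 leukocyte markers likewise went from 11.53 to 14.3 to 4.14 to 9.43 CPM and from 16.2 to 20.3 to 7.87 to 8.99 CPM in batch 1, and overlapped in batch 2. The part of these shifts in the members' changes was not tested.

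**Figure D1:**
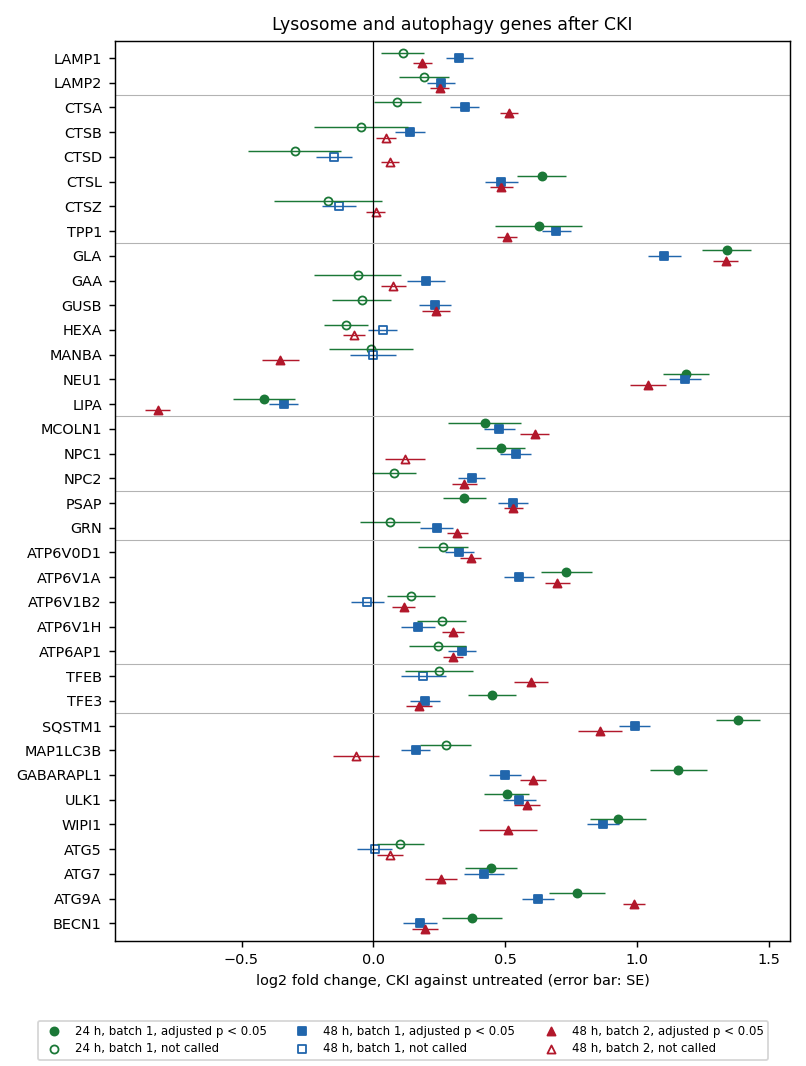
The log2 fold change of each of the 36 members after CKI relative to untreated cells (horizontal axis, bars are ± 1 standard error of the fit), with the members grouped by role on the vertical axis. Colours give the 3 comparisons (24 h batch 1, 48 h batch 1 and 48 h batch 2), and most points lie right of 0, with LIPA to its left in all 3 and GLA, NEU1 and SQSTM1 reaching furthest right.

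Among membrane proteins, LAMP1 and LAMP2 passed the test at 48 h in both batches, and neither did at 24 h. LAMP2, a receptor also used in chaperone-mediated autophagy, had the larger mean change. The untreated libraries at 24 h held 298, 328 and 321 CPM of LAMP2 and the CKI libraries 397, 341 and 342 CPM. The values at 48 h were 353, 325 and 326 CPM untreated and 400.5, 393 and 396 CPM with CKI in batch 1, and 461, 474 and 454 CPM untreated and 537, 556 and 538 CPM with CKI in batch 2. The CKI libraries lay above the untreated ones in each comparison, by a margin smaller than their own range at 24 h. The log2 fold change was 0.19 ± 0.095 at 24 h, 0.26 ± 0.053 at 48 h in batch 1 and 0.25 ± 0.037 at 48 h in batch 2 (adjusted p = 0.146, 0.000406 and 4.78e-05). LAMP1, the most used marker of the organelle, changed by 0.32 ± 0.051, adjusted p = 2.26e-05, in batch 1 and by 0.18 ± 0.035, adjusted p = 0.000434, in batch 2 at 48 h.

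Of the 6 proteases, TPP1 and CTSL rose in all 3 CKI comparisons, whereas CTSD and CTSZ passed the test in none. TPP1 is a serine protease that removes tripeptides from protein ends. Untreated cells had 90.0, 93.6 and 104 CPM of TPP1 at 24 h, and cells given CKI had 188, 131 and 123 CPM. In batch 1 at 48 h these were 115, 110.5 and 109.9 CPM and 172, 180.3 and 185 CPM, and in batch 2 they were 201, 193 and 209.9 CPM and 288, 279.8 and 280.4 CPM. The groups did not overlap, and CKI replicate 1 at 24 h was the highest library of its group. The log2 fold change of TPP1 was 0.63 ± 0.17 at 24 h, 0.69 ± 0.054 at 48 h in batch 1 and 0.51 ± 0.039 at 48 h in batch 2 (adjusted p = 0.0202, 3.84e-09 and 1.35e-07). The 24 h call of TPP1 was lost without UT replicate 1 or UT replicate 2 (adjusted p = 0.0829 and 0.0763). CTSL is a cysteine protease that cuts proteins internally. Levels of CTSL were 118, 113 and 98.5 CPM untreated and 169, 165 and 179.6 CPM with CKI at 24 h. By 48 h they were 104, 107 and 105 CPM and 161, 140.2 and 138 CPM in batch 1, and 121, 118 and 127 CPM and 162, 176 and 167 CPM in batch 2. Here too the CKI libraries were above all untreated ones. CTSL changed by 0.64 ± 0.093 at 24 h, 0.48 ± 0.062 at 48 h in batch 1 and 0.48 ± 0.044 at 48 h in batch 2 (adjusted p = 0.00166, 1.96e-06 and 6.02e-07). CTSA, which protects NEU1 and GLB1 in a complex, rose at 48 h, by 0.35 ± 0.055, adjusted p = 2.61e-05, in batch 1 and 0.51 ± 0.034, adjusted p = 3.74e-08, in batch 2. CTSB, a cysteine protease, was called in batch 1 at 48 h with a log2 change of 0.14. CTSD, the main aspartic protease, gave -0.30, -0.15 and 0.062 in the 3 comparisons. At 24 h the library that stood apart held 2836 CPM of CTSD and the other CKI libraries 4509 and 4692 CPM.

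GLA and NEU1 were the members called in all 3 comparisons with at least a doubling in each. GLA is the alpha-galactosidase whose loss causes Fabry disease. GLA was at 35.8, 37.0 and 35.0 CPM in the untreated libraries at 24 h and at 98.5, 85.0 and 88.7 CPM with CKI. At 48 h GLA was at 28.3, 28.1 and 26.7 CPM untreated and 60.0, 59.0 and 57.8 CPM with CKI in batch 1, and at 30.4, 32.7 and 30.8 CPM untreated and 77.8, 78.2 and 77.9 CPM with CKI in batch 2. All CKI libraries were above all untreated libraries, with little spread within a group at 48 h. The fold was 2.53, 2.15 and 2.52, or 1.34 ± 0.092 at 24 h, 1.10 ± 0.062 at 48 h in batch 1 and 1.33 ± 0.048 at 48 h in batch 2 on the log2 scale (adjusted p = 8.04e-05, 4.20e-11 and 1.83e-10). NEU1 is the lysosomal sialidase. The untreated libraries at 24 h held 189, 188 and 172 CPM of NEU1 and the CKI libraries 387, 414 and 446 CPM. The values at 48 h were 189, 198 and 212 CPM untreated and 479, 436 and 430.4 CPM with CKI in batch 1, and 242, 210.4 and 273 CPM untreated and 495, 494 and 485 CPM with CKI in batch 2. These groups were also separate, with the untreated libraries of batch 2 the most scattered. The log2 fold change of NEU1 was 1.18 ± 0.087 at 24 h, 1.18 ± 0.061 at 48 h in batch 1 and 1.04 ± 0.068 at 48 h in batch 2 (adjusted p = 0.000101, 1.23e-11 and 3.00e-08).

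LIPA, the acid lipase that frees cholesterol from lipoprotein esters, went the other way. Untreated cells had 154, 165 and 164 CPM of LIPA at 24 h, and cells given CKI had 98.8, 130.1 and 133 CPM. In batch 1 at 48 h these were 197, 183 and 179.7 CPM and 149, 146 and 144 CPM, and in batch 2 they were 229, 224 and 245 CPM and 127, 138 and 127 CPM. Every CKI library was below every untreated one. LIPA changed by -0.42 ± 0.12 at 24 h, -0.34 ± 0.054 at 48 h in batch 1 and -0.82 ± 0.047 at 48 h in batch 2 (adjusted p = 0.0258, 2.87e-05 and 9.09e-09). The 24 h call of LIPA was lost without any 1 untreated replicate (adjusted p = 0.0624 to 0.0966). MANBA, a beta-mannosidase, changed in batch 2 by -0.35 ± 0.070, adjusted p = 0.000601, and was at -0.0020 in batch 1 at 48 h. GUSB, the beta-glucuronidase, rose at 48 h by 0.23 and 0.24 (adjusted p = 0.00222 and 0.00135). GAA, which degrades glycogen, rose in batch 1 at 48 h by 0.20 (adjusted p = 0.0247). HEXA, a subunit of beta-hexosaminidase, passed the test in none of the 3, with log2 changes from -0.10 to 0.035.

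MCOLN1, the lysosomal cation channel TRPML1, rose in all 3 comparisons. Levels of MCOLN1 were 71.2, 65.5 and 63.7 CPM untreated and 70.6, 92.5 and 105 CPM with CKI at 24 h. By 48 h they were 55.0, 57.0 and 60.5 CPM and 79.5, 81.1 and 77.7 CPM in batch 1, and 40.5, 39.8 and 45.7 CPM and 64.0, 62.7 and 63.3 CPM in batch 2. At 24 h the groups overlapped, as CKI replicate 1 lay within the untreated range, and at 48 h they were separate. The change was 0.42 ± 0.14 at 24 h, 0.48 ± 0.059 at 48 h in batch 1 and 0.61 ± 0.054 at 48 h in batch 2 (adjusted p = 0.0441, 1.32e-06 and 5.36e-07). The 24 h call of MCOLN1 was lost without any 1 untreated replicate, CKI replicate 2 or CKI replicate 3 (adjusted p = 0.092 to 0.135). NPC1 and NPC2 hand cholesterol out of the lysosome. NPC1 was at 101, 105 and 118 CPM in the untreated libraries at 24 h and at 153, 158 and 141 CPM with CKI. At 48 h NPC1 was at 140.3, 133 and 132 CPM untreated and 179.8, 204 and 200.1 CPM with CKI in batch 1, and at 186, 156 and 208 CPM untreated and 193, 193 and 203 CPM with CKI in batch 2. NPC1 was separate between groups in batch 1, and in batch 2 the untreated libraries spanned the CKI ones. NPC1 changed by 0.48 ± 0.092 at 24 h, 0.54 ± 0.059 at 48 h in batch 1 and 0.12 ± 0.076 at 48 h in batch 2 (adjusted p = 0.0053, 3.38e-07 and 0.181). NPC2 rose at 48 h by 0.37 and 0.34 (adjusted p = 4.99e-06 and 2.85e-05).

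PSAP is the precursor of the saposins, small activators of sphingolipid hydrolases. The untreated libraries at 24 h held 1197, 1220.3 and 1159.9 CPM of PSAP and the CKI libraries 1407, 1555 and 1574 CPM. The values at 48 h were 1299, 1256 and 1224 CPM untreated and 1926, 1751 and 1737 CPM with CKI in batch 1, and 1412, 1366 and 1468 CPM untreated and 2007, 2029.9 and 2019 CPM with CKI in batch 2. The CKI libraries were above the untreated ones throughout. PSAP changed by 0.34 ± 0.081 at 24 h, 0.53 ± 0.056 at 48 h in batch 1 and 0.53 ± 0.035 at 48 h in batch 2 (adjusted p = 0.0125, 2.12e-07 and 3.19e-08). The 24 h call of PSAP was lost without any 1 untreated replicate or CKI replicate 2 (adjusted p = 0.0503 to 0.0594). GRN, the precursor of the granulins, had log2 changes of 0.062 ± 0.11 at 24 h, 0.24 ± 0.063 at 48 h in batch 1 and 0.32 ± 0.040 at 48 h in batch 2, and passed the test at 48 h (adjusted p = 0.00313 and 1.20e-05).

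Of the 5 V-ATPase genes, 1 rose at 24 h, 4 at 48 h in batch 1 and 5 in batch 2, beside 38.7, 62.5 and 68.4% of all genes called. ATP6V1A, the catalytic subunit of the peripheral domain, was the one called each time. Untreated cells had 47.5, 48.1 and 45.0 CPM of ATP6V1A at 24 h, and cells given CKI had 85.5, 73.5 and 73.8 CPM. In batch 1 at 48 h these were 50.0, 47.5 and 48.1 CPM and 71.1, 70.8 and 70.1 CPM, and in batch 2 they were 63.7, 65.7 and 59.2 CPM and 100.2, 100.4 and 101 CPM. The groups did not overlap. ATP6V1A changed by 0.73 ± 0.095 at 24 h, 0.55 ± 0.057 at 48 h in batch 1 and 0.70 ± 0.048 at 48 h in batch 2 (adjusted p = 0.00108, 1.48e-07 and 4.86e-08). ATP6V0D1 is a subunit that couples the rotor to the membrane domain. Levels of ATP6V0D1 were 122, 114 and 104 CPM untreated and 124, 138 and 147 CPM with CKI at 24 h. By 48 h they were 92.9, 91.9 and 93.5 CPM and 121, 115 and 111 CPM in batch 1, and 91.2, 86.8 and 91.0 CPM and 118, 113 and 113 CPM in batch 2. The CKI libraries were higher each time, with CKI replicate 1 the nearest to the untreated range at 24 h. ATP6V0D1 changed by 0.26 ± 0.096 at 24 h, 0.33 ± 0.055 at 48 h in batch 1 and 0.37 ± 0.041 at 48 h in batch 2 (adjusted p = 0.0612, 4.78e-05 and 4.32e-06). ATP6AP1, an accessory subunit, gave 0.24, 0.33 and 0.30, and ATP6V1H, a regulatory subunit, gave 0.26, 0.17 and 0.30, both past the test at 48 h. ATP6V1B2, a nucleotide-binding subunit, passed it in batch 2 at 48 h with 0.11.

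TFEB mRNA rose with CKI in batch 2. TFEB was at 29.3, 26.5 and 25.2 CPM in the untreated libraries at 24 h and at 26.8, 33.5 and 36.0 CPM with CKI. At 48 h TFEB was at 31.4, 38.0 and 41.4 CPM untreated and 44.8, 40.3 and 40.1 CPM with CKI in batch 1, and at 19.8, 22.0 and 19.8 CPM untreated and 31.5, 29.6 and 30.8 CPM with CKI in batch 2. The groups overlapped in batch 1 at both times and were separate in batch 2. TFEB changed by 0.25 ± 0.13 at 24 h, 0.19 ± 0.085 at 48 h in batch 1 and 0.60 ± 0.065 at 48 h in batch 2 (adjusted p = 0.158, 0.0631 and 3.27e-06). TFE3, its close relative, rose in all 3 comparisons by 0.45 ± 0.091 at 24 h, 0.19 ± 0.057 at 48 h in batch 1 and 0.17 ± 0.049 at 48 h in batch 2 (adjusted p = 0.00658, 0.00627 and 0.00717), although its groups overlapped in batch 2.

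Among the 9 autophagy genes, 7, 8 and 7 were called, all higher, beside 38.7, 62.5 and 68.4% of all genes called. SQSTM1 (p62), the receptor that binds ubiquitin and ATG8 proteins, rose the most at 24 h. The untreated libraries at 24 h held 612, 614 and 588 CPM of SQSTM1 and the CKI libraries 1653, 1498 and 1567 CPM. The values at 48 h were 639, 694 and 711 CPM untreated and 1399, 1318 and 1309 CPM with CKI in batch 1, and 883, 737 and 1034 CPM untreated and 1569, 1600.2 and 1583 CPM with CKI in batch 2. No untreated library reached a CKI library. The fold of SQSTM1 was 2.60, 1.99 and 1.81, or 1.38 ± 0.082 at 24 h, 0.99 ± 0.057 at 48 h in batch 1 and 0.86 ± 0.084 at 48 h in batch 2 on the log2 scale (adjusted p = 5.88e-05, 6.00e-11 and 1.23e-06). ATG9A is the scramblase that seeds the growing membrane. Untreated cells had 128, 119.6 and 116 CPM of ATG9A at 24 h, and cells given CKI had 177, 229 and 216 CPM. In batch 1 at 48 h these were 121, 133 and 141 CPM and 204, 201 and 198 CPM, and in batch 2 they were 95.8, 89.5 and 90.7 CPM and 184, 176 and 181 CPM. Its groups were separate too. ATG9A changed by 0.77 ± 0.11 at 24 h, 0.62 ± 0.060 at 48 h in batch 1 and 0.99 ± 0.042 at 48 h in batch 2 (adjusted p = 0.00131, 5.71e-08 and 6.81e-10).

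WIPI1, which reads phosphatidylinositol 3-phosphate on the forming membrane, rose by 0.93, 0.87 and 0.51 (adjusted p = 0.00059, 6.41e-10 and 0.00117), and the initiating kinase ULK1 by 0.50, 0.55 and 0.58 (adjusted p = 0.00301, 3.92e-07 and 2.70e-07). GABARAPL1 and MAP1LC3B are ATG8-family genes. GABARAPL1 rose by 1.16 ± 0.11 at 24 h, 0.50 ± 0.061 at 48 h in batch 1 and 0.60 ± 0.050 at 48 h in batch 2 (adjusted p = 0.000288, 1.29e-06 and 2.52e-07), whereas MAP1LC3B was called in batch 1 at 48 h, with 0.27, 0.16 and -0.067. ATG7, the enzyme that activates ATG8 proteins, rose by 0.44, 0.42 and 0.26, and BECN1, a subunit of the lipid kinase complex, by 0.37, 0.18 and 0.19. ATG5, part of the conjugation enzyme, passed the test in none of the 3, at 0.10, 0.0039 and 0.062.

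The next question was how the same genes behaved with the component mixtures of batch 1. These comparisons share their untreated libraries at each time. At 24 h, 15 members rose and 2 fell with N_2 (66.8% of all genes called, 33.0% higher and 33.8% lower). With N_3, 11 rose and 3 fell (45.9% of all genes, 23.8% higher and 22.1% lower). With OO, 8 rose and 1 fell (16.5% of all genes, 8.54% higher and 7.92% lower), and with MOO, 20 rose and 1 fell (35.8% of all genes, 18.1% higher and 17.7% lower). At both times rises outnumbered falls among the members. At 48 h, 20 were higher and 6 lower with N_2 (80.4% of all genes, 40.1% higher and 40.4% lower), and 15 and 6 with N_3 (64.7% of all genes, 32.4% higher and 32.3% lower). They were 16 and 10 with OO (67.8% of all genes, 34.1% higher and 33.7% lower), and 14 and 7 with MOO (60.5% of all genes, 30.5% higher and 30.1% lower). The member medians were 0.26, 0.20, 0.17 and 0.21 at 24 h and 0.20, 0.13, 0.099 and 0.058 at 48 h, in the order N_2, N_3, OO and MOO. In the same order, 47.2, 38.9, 25 and 58.3% of members were called at 24 h. At 48 h it was 72.2, 58.3, 72.2 and 58.3%. The member share was below the all-gene share with N_2 and N_3 at both times and with MOO at 48 h, and above it in the others. With library sizes alone in place of TMM, the 48 h split was 21 higher and 8 lower with OO and 18 and 5 with MOO.

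Several 24 h counts turned on single libraries. For N_3 the count was 24 (21 higher and 3 lower, 68.3% of all genes) without N_3 replicate 2, which stood apart. Without that library CTSZ changed by -0.44 and GABARAPL1 by 1.93 log2 with N_3, both still called. For OO the count was 10 (19.5% of all genes) without OO replicate 2, which stood apart, 16 (41.7%) without OO replicate 1, 5 (4.46%) without UT replicate 1 and 5 (3.96%) without UT replicate 2. Without OO replicate 2, NEU1 changed by 1.13 and TFEB by -0.75 log2 with OO, also still called. For MOO the count was 13 without UT replicate 3 (30.4% of all genes) or MOO replicate 2 (24.5%). The N_2 libraries at 24 h were unlike each other and had TMM factors of 0.775 to 0.842, while all other libraries at 24 h were at 0.938 or above. GRN was at 410.0, 271 and 1069 CPM and CTSD at 4904, 3214 and 9002 CPM in N_2 replicates 1, 2 and 3. Replicate 3 was the highest of the 3 for both genes. Without replicate 3, 28 members were called (16 higher and 12 lower), which was 77.8% of members beside 75.9% of all genes. CTSB then turned from 0.052 to -0.21. With library sizes alone, 9 members were higher and 6 lower with N_2 at 24 h, and the median of all genes moved by -0.30. Leukocyte markers summed to 13.9 to 29.1 CPM and endothelial markers to 20.3 to 24.3 CPM in these libraries, compared with 11.53 to 14.3 and 6.68 to 8.07 CPM untreated. The part of these features in the N_2 result was not tested.

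**Figure D2:**
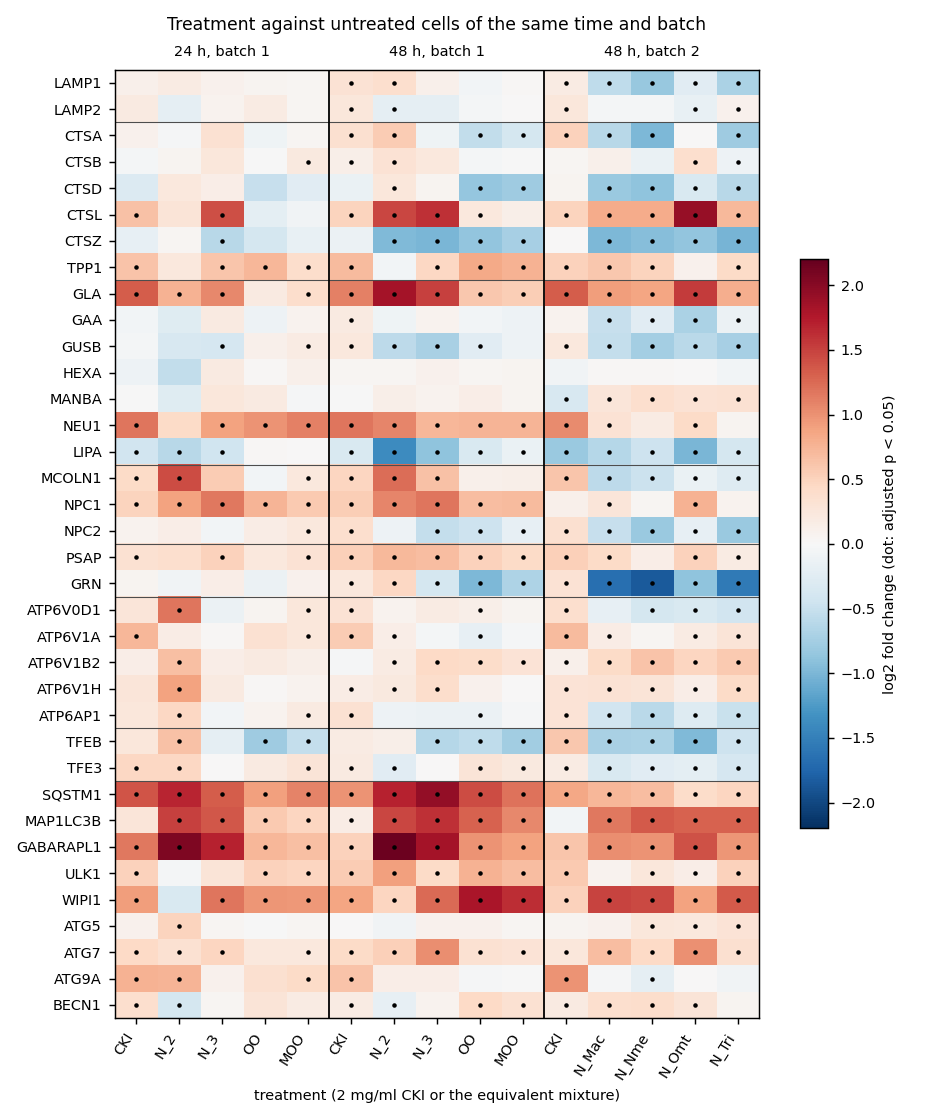
Log2 fold change relative to untreated cells of the same time and batch (colour) for the 36 members (rows, by role) in the 15 comparisons with UT (columns), where dots mark an adjusted p under 0.05. CKI columns are mostly red, while GRN, CTSZ and TFEB turn blue in the single-removal columns of batch 2.

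GABARAPL1, MAP1LC3B and SQSTM1 were high in the mixtures. With N_2 at 48 h, GABARAPL1 was at 174, 153 and 161 CPM, and with OO it was at 75.1, 70.1 and 73.4 CPM, compared with 37.3, 37.3 and 35.2 CPM in untreated cells. None of these groups overlapped. Its log2 fold change was 2.05 ± 0.15, adjusted p = 8.88e-06, with N_2 at 24 h and 2.15 ± 0.066, adjusted p = 3.85e-18, with N_2 at 48 h, and 1.70 ± 0.22, adjusted p = 0.00123, and 1.83 ± 0.092, adjusted p = 3.47e-08, with N_3. It was the member with the largest rise with N_2 at both times and with N_3 at 24 h. MAP1LC3B was at 214, 214 and 191 CPM with N_2, 236, 187 and 253 CPM with N_3, 181, 180.4 and 188 CPM with OO and 158, 151 and 156 CPM with MOO at 48 h. Untreated cells had 76.1, 73.8 and 73.8 CPM, below all of these libraries, and CKI 84.6, 80.5 and 83.0 CPM. At 48 h MAP1LC3B rose by 1.47 ± 0.063, 1.61 ± 0.12, 1.29 ± 0.049 and 1.05 ± 0.053 with N_2, N_3, OO and MOO. SQSTM1 was the largest rise with N_3 at 48 h (1.93 ± 0.12, adjusted p = 1.52e-07), and it rose by 1.69, 1.44 and 1.20 with N_2, OO and MOO. WIPI1 was the largest rise with OO and MOO at 48 h, by 1.79 ± 0.053, adjusted p = 7.92e-16, and 1.63 ± 0.058, adjusted p = 1.86e-12.

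At 24 h the largest rise with OO and with MOO was that of NEU1. It was at 450.5, 295 and 351 CPM with OO and 425, 396 and 361 CPM with MOO, all above the untreated 189, 188 and 172 CPM, and rose by 1.00 ± 0.16, adjusted p = 0.0057, and 1.10 ± 0.075, adjusted p = 1.53e-06. TFEB was the largest fall in the same groups, at 17.3, 15.0 and 14.9 CPM and 21.3, 19.6 and 15.7 CPM, all below the untreated 29.3, 26.5 and 25.2 CPM. The change was -0.78 ± 0.12, adjusted p = 0.00587, and -0.52 ± 0.11, adjusted p = 0.00408. At 48 h TFEB was called lower with OO (-0.56), MOO (-0.77) and N_3 (-0.63), and with N_2 its log2 change was 0.13 (adjusted p = 0.196).

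Falls at 48 h included GRN and several hydrolases. GRN was the largest fall with OO, at 328, 315 and 291 CPM compared with 563, 635 and 651 CPM untreated, a change of -0.99 ± 0.059, adjusted p = 2.26e-11. With N_2 it was at 866, 823 and 833 CPM and rose by 0.45 ± 0.063, adjusted p = 7.65e-07. So GRN was above the untreated range with N_2 and below it with OO. CTSD was the largest fall with MOO, at 2934, 3421 and 2906 CPM against 4797, 5324 and 5698 CPM, a change of -0.78 ± 0.072, adjusted p = 1.26e-07. With N_2 CTSD rose by 0.24 ± 0.065, adjusted p = 0.00157. CTSZ, a carboxypeptidase, was the largest fall with N_3 at both times (-0.61 ± 0.17, adjusted p = 0.021, and -1.0 ± 0.13, adjusted p = 6.23e-05). CTSA was called lower with OO (-0.55) and MOO (-0.38) and higher with N_2 (0.57). LIPA was the largest fall with N_2, with -0.60 ± 0.10, adjusted p = 0.00097, at 24 h and -1.38 ± 0.067, adjusted p = 1.15e-14, at 48 h.

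**Figure D3:**
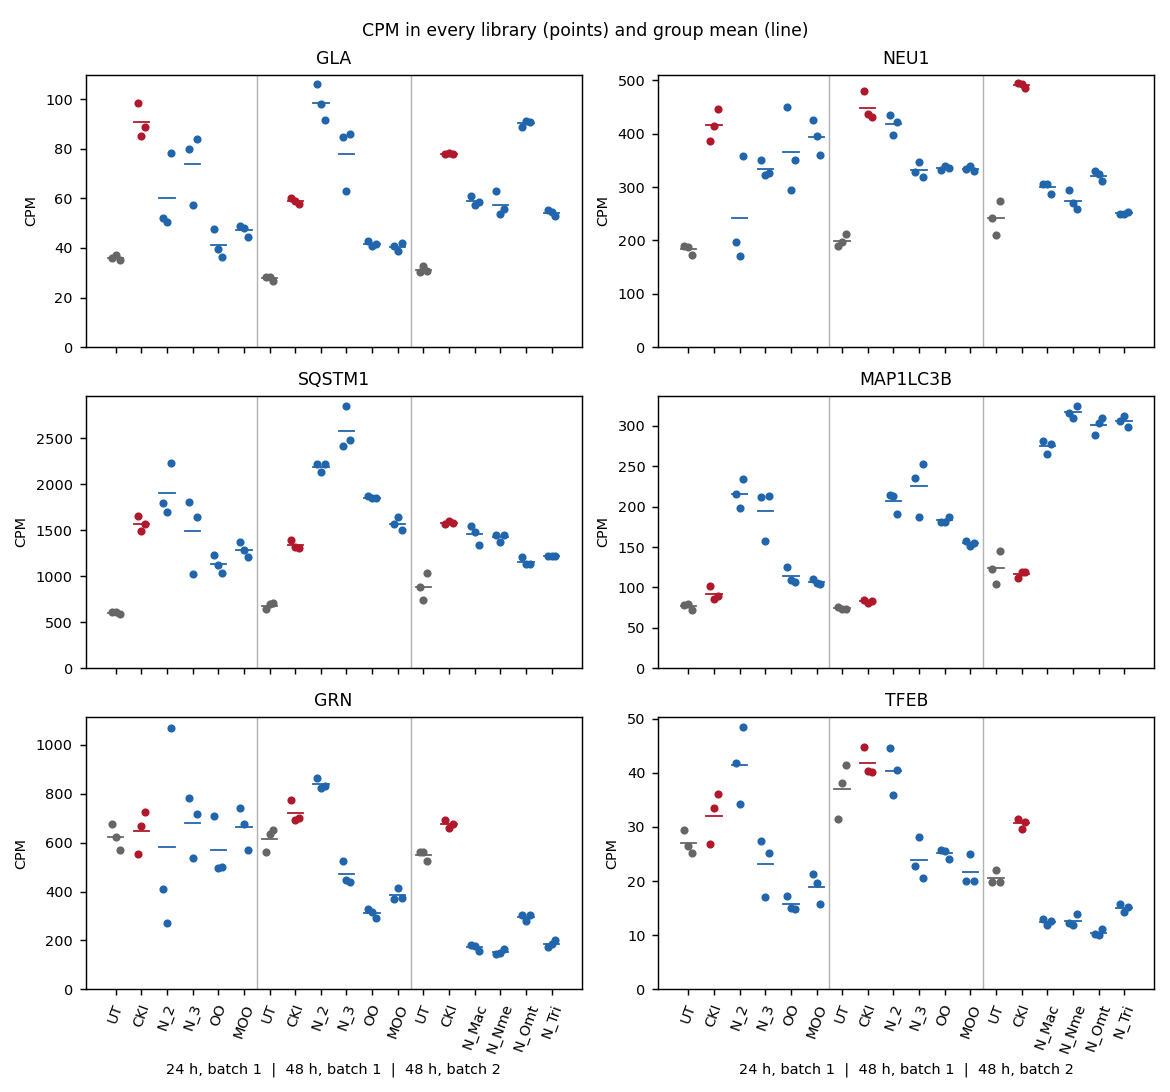
CPM of GLA, NEU1, SQSTM1, MAP1LC3B, GRN and TFEB in each of the 54 libraries (points) by group (horizontal axis, 18 groups of 3), with a line at each group mean. GLA and NEU1 are higher with CKI than in untreated cells, and MAP1LC3B is higher with the mixtures than with CKI.

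In batch 2 the question was how the members behaved with CKI lacking a single compound. No group held CKI that was separated and put together again with nothing removed. An effect of removing a compound therefore cannot be told apart from an effect of preparing the mixture. Compared with the shared untreated libraries, 16 members rose and 13 fell with N_Mac (72.6% of all genes called, 36.5% higher and 36.0% lower), and 14 rose and 15 fell with N_Nme (69.5% of all genes, 34.9% higher and 34.6% lower). With N_Omt 18 rose and 14 fell (79.6% of all genes, 39.4% higher and 40.2% lower), and with N_Tri 16 rose and 15 fell (74.3% of all genes, 37.1% higher and 37.2% lower). With full CKI in the same batch, 26 rose and 2 fell. The member medians were 0.085, 0.035, 0.12 and 0.056 with N_Mac, N_Nme, N_Omt and N_Tri. The 3 endothelial markers summed to 8.45 to 9.98 CPM untreated and 10.3 to 11.1 CPM with CKI, and to 21.4 to 23.7, 17.5 to 22.8, 20.8 to 23.5 and 18.9 to 21.3 CPM in the 4 removals. The mesenchymal sum was 2815 to 3419 CPM in the removals, below the untreated range. The part of these shifts in the members' changes was not tested. WIPI1 was the largest rise with N_Mac (1.48 ± 0.11, adjusted p = 4.60e-09), N_Nme (1.46 ± 0.12, adjusted p = 1.70e-08) and N_Tri (1.35 ± 0.11, adjusted p = 1.99e-07). GRN was the largest fall with the same mixtures, at 180.1, 179 and 158 CPM, 143, 150.4 and 166 CPM and 174, 187 and 200.04 CPM. Untreated cells of this batch had 561, 561 and 527 CPM of GRN, so no library overlapped. The change of GRN was -1.66 ± 0.063, adjusted p = 3.17e-12, with N_Mac, -1.85 ± 0.070, adjusted p = 2.73e-12, with N_Nme and -1.56 ± 0.052, adjusted p = 9.32e-11, with N_Tri. With N_Omt the largest rise was that of CTSL (1.91 ± 0.047, adjusted p = 2.94e-14) and the largest fall that of LIPA (-1.0 ± 0.049, adjusted p = 6.11e-11).

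Members that rose with CKI at 48 h and were called lower with a single removal came from several roles. LAMP1 was at 336, 321 and 337 CPM untreated, 370.1, 373 and 373 CPM with CKI and 189, 188 and 181 CPM with N_Nme. CKI lay above and N_Nme below the untreated range. LAMP1 changed by -0.56 ± 0.063, -0.84 ± 0.060, -0.25 ± 0.044 and -0.70 ± 0.037 with N_Mac, N_Nme, N_Omt and N_Tri, all called. In the same order NPC2 changed by -0.51, -0.82, -0.18 and -0.82, GUSB by -0.52, -0.74, -0.59 and -0.73, and ATP6AP1 by -0.42, -0.59, -0.28 and -0.50, each called. TFE3 changed by -0.34, -0.25, -0.21 and -0.36, and MCOLN1 by -0.57, -0.46, -0.15 and -0.29, also each called. The pump, membrane, sterol and transcription factor genes thus had members below their untreated level, while other pump and sterol members were not called lower. ATP6V1B2, ATP6V1H and NPC1 were called higher in 10, 9 and 12 of the 15 comparisons with UT in both batches, and lower in none. With N_Omt, NPC1 was at 313, 305 and 307 CPM, above the untreated 186, 156 and 208 CPM. CTSA fell with N_Mac, N_Nme and N_Tri (-0.62, -0.98 and -0.78) and was at 0.0037 ± 0.043 with N_Omt. ATP6V0D1 was called lower with N_Nme, N_Omt and N_Tri (-0.39, -0.34 and -0.42), as were LAMP2 with N_Omt (-0.17) and ATG9A with N_Nme (-0.19). CTSB was called higher with N_Omt (0.36) and lower with N_Tri (-0.11). MANBA went the other way from CKI, with 0.27, 0.37, 0.32 and 0.34, all called higher. In batch 1, ATP6V1A was called lower with OO at 48 h (-0.19), and BECN1 with N_2 at 24 and 48 h (-0.39 and -0.19) but higher with OO (0.43) and MOO (0.34) at 48 h.

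Each single removal was then tested directly against full CKI. These comparisons share the CKI libraries, so they are not independent of each other. Against CKI, 11 members were higher and 20 lower with N_Mac (72.8% of all genes called), 10 and 22 with N_Nme (72.7%), 13 and 22 with N_Omt (80.5%), and 9 and 23 with N_Tri (77.1%). The member medians were -0.34, -0.31, -0.38 and -0.27, and the all-gene calls were split nearly evenly, with 36.6%, 37.3%, 40.1% and 38.4% higher. By these medians the members tended to lie below their level in full CKI. In all 4 removals 18 members were called lower and 6 higher. The share of all genes called in the same direction in all 4 was not computed. These counts therefore have no background to be read against. The 6 called higher were MAP1LC3B, GABARAPL1, WIPI1, CTSL, MANBA and ATP6V1B2. The autophagy genes went both ways. SQSTM1 and ATG9A were called lower in all 4 and ULK1 in 3, while ATG5, ATG7 and BECN1 were called higher in 3. MAP1LC3B was at 281, 266 and 277 CPM with N_Mac, 317, 310.3 and 325 CPM with N_Nme and 306, 312 and 298 CPM with N_Tri, well above the 111, 119.5 and 119 CPM of CKI. It was the largest rise in these 3 comparisons, by 1.24 ± 0.045, adjusted p = 5.37e-21, 1.44 ± 0.053, adjusted p = 7.50e-15, and 1.38 ± 0.034, adjusted p = 2.00e-35. With N_Omt it rose by 1.38 ± 0.038, adjusted p = 1.57e-36.

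GRN gave the largest fall of the members against CKI with N_Mac (-1.96 ± 0.050, adjusted p = 7.65e-25), N_Nme (-2.15 ± 0.058, adjusted p = 1.07e-16) and N_Tri (-1.86 ± 0.036, adjusted p = 4.19e-40), from 693, 661 and 677 CPM in CKI. With N_Omt it was at 303, 278 and 305 CPM, between CKI and the other removals, and fell by 1.18 on the log2 scale. The largest fall with N_Omt was that of TFEB (-1.54 ± 0.072, adjusted p = 2.99e-26), which was at 10.2, 10.1 and 11.2 CPM, compared with 31.5, 29.6 and 30.8 CPM in CKI. These groups were far apart. CTSL gave the largest rise with N_Omt, at 439, 460.4 and 469 CPM compared with 162, 176 and 167 CPM in CKI (1.45 ± 0.037, adjusted p = 3.67e-38), and its log2 changes with N_Mac, N_Nme and N_Tri were 0.34, 0.35 and 0.24. GLA was called higher than CKI with N_Omt (0.22 ± 0.042, adjusted p = 3.96e-06) and lower with N_Mac (-0.40), N_Nme (-0.45) and N_Tri (-0.54). Relative to CKI, MCOLN1 fell by 1.17 ± 0.056, adjusted p = 7.60e-18, with N_Mac and by 1.05 ± 0.060, adjusted p = 6.11e-12, with N_Nme. At 29.6, 28.2 and 26.3 CPM and 30.9, 28.6 and 32.4 CPM it was also below the untreated 40.5, 39.8 and 45.7 CPM. NPC1 was called higher with N_Omt (0.66) and N_Mac (0.17), and was at -0.054 ± 0.058 and -0.035 ± 0.035 with N_Nme and N_Tri. The removals were not tested against each other.

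**Figure D4:**
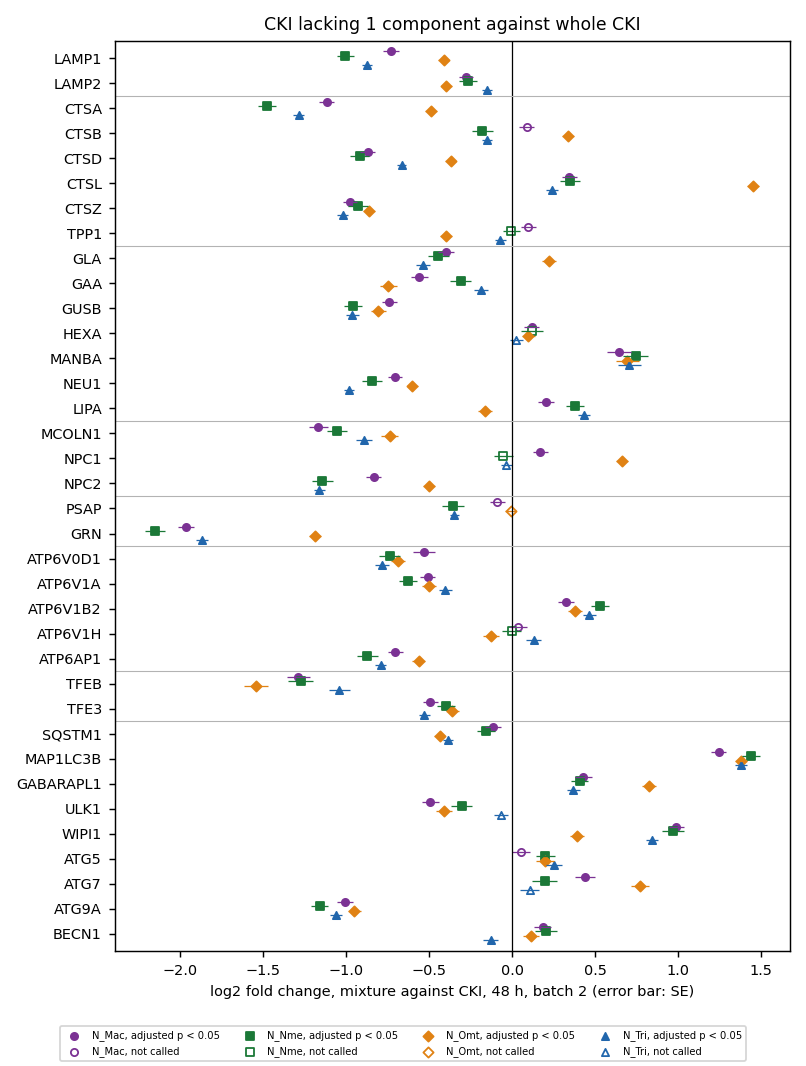
Log2 fold change of the 36 members for each single removal relative to full CKI at 48 h in batch 2 (horizontal axis, bars are ± 1 standard error; filled symbols passed the test and colours give N_Mac, N_Nme, N_Omt and N_Tri). MAP1LC3B lies near 1.24 to 1.44 on the right, GRN between -2.15 and -1.18 on the left, and CTSL stands out for N_Omt at 1.45.

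In batch 1, N_2 and N_3 were likewise set against CKI, whose libraries they share at each time. Here too, an effect of the missing compounds cannot be told apart from an effect of preparing the mixture. At 24 h, 8 members were higher and 7 lower with N_2 (54.0% of all genes called), and 3 were higher and 3 lower with N_3 (23.1%). At 48 h, 14 were higher and 14 lower with N_2 (77.8%), and 10 and 11 with N_3 (60.5%). The 24 h counts depended on single libraries. Without CKI replicate 1 and N_3 replicate 2, which stood apart, they were 11 for N_2 (54.4% of all genes) and 24 for N_3 (13 higher and 11 lower, 62.5%). Without CKI replicate 2 or N_2 replicate 1 the N_2 count was 8 (42.7% and 41.5% of all genes). Without N_2 replicate 2 it was 9 (46.4%), and without N_2 replicate 3 it was 20 (56.2%). For N_3 the count was 10 without N_3 replicate 2 alone (40.8% of all genes). It was 3 without CKI replicate 3 (7.61%) or N_3 replicate 1 (8.33%), and 1 without CKI replicate 2 (4.23%) or N_3 replicate 3 (4.17%). With library sizes alone the splits were 3 higher and 14 lower for N_2 at 24 h, 3 and 5 for N_3 at 24 h, and 7 and 18 for N_3 at 48 h, with the median of all genes shifted by -0.34 for N_2 at 24 h and -0.15 for N_3 at 48 h.

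MAP1LC3B exceeded its CKI level, by 1.23 ± 0.13, adjusted p = 0.000178, and 1.32 ± 0.057, adjusted p = 5.45e-15, with N_2 and by 1.09 ± 0.16, adjusted p = 0.00568, and 1.46 ± 0.12, adjusted p = 6.20e-06, with N_3 at 24 and 48 h. It was the largest rise in 3 of these comparisons. In the other, N_2 at 48 h, GABARAPL1 was the largest, by 1.66 ± 0.059, adjusted p = 2.33e-16. CTSL rose at 48 h by 0.99 ± 0.057, adjusted p = 7.48e-13, with N_2 and 1.14 ± 0.14, adjusted p = 9.40e-05, with N_3. The largest falls were those of WIPI1 (-1.28 ± 0.18, adjusted p = 0.000534) with N_2 and ATP6V1A (-0.71 ± 0.14, adjusted p = 0.0149) with N_3 at 24 h, and of LIPA (-1.03 ± 0.058, adjusted p = 5.06e-13) with N_2 and GUSB (-0.93 ± 0.087, adjusted p = 1.48e-05) with N_3 at 48 h. WIPI1 was at 26.3, 24.9 and 35.7 CPM with N_2 at 24 h, compared with 79.9, 65.6 and 66.5 CPM with CKI and 36.9, 38.4 and 36.6 CPM untreated. The N_2 libraries were thus below both. Without CKI replicate 1 and N_3 replicate 2 at 24 h, MAP1LC3B was above CKI by 1.30 with N_2 and by 1.30 with N_3, WIPI1 was at -1.18 with N_2 and ATP6V1A at -0.74 with N_3, all still called.

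OO and MOO differ by macrozamin. At 24 h no member passed the test between them (edgeR), none had an unadjusted p under 0.05, and 0 of 14211 genes were called (0.00%). DESeq2 called no member either, while 2 members were called without OO replicate 1 (15.1% of all genes). Without OO replicate 2, which stood apart, 0 members and 0.0139% of all genes were called. The member differences ranged from -0.36 to 0.29 with standard errors up to 0.21, so changes of that size were not resolved. At 48 h, 4 members were higher and 3 lower with MOO (9.72% of all genes called). GRN was the largest rise, at 368, 415 and 373 CPM with MOO and 328, 315 and 291 CPM with OO (0.30 ± 0.051, adjusted p = 0.000472), and the groups did not overlap. NPC2, LIPA and CTSA were the others called higher, by 0.27, 0.17 and 0.16. SQSTM1 gave the largest fall (-0.25 ± 0.040, adjusted p = 0.000283), followed by MAP1LC3B at -0.25 and WIPI1 at -0.17. Without OO replicate 2, OO replicate 3 or MOO replicate 3, 4 members were called (5.86%, 6.1% and 6.28% of all genes). Without MOO replicate 2 the count was 10 (15.4% of all genes).

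N_3 and N_2 also differ by macrozamin, with the remaining compounds of CKI present. At 24 h, 2 members were higher and 10 lower with N_3 (36.7% of all genes called), and at 48 h, 5 were higher and 9 lower (39.2%). The 24 h count depended on single libraries of both groups. It was 2 without N_2 replicate 1 (17.3% of all genes), 7 without N_2 replicate 2 (22.7%), 8 without N_3 replicate 1 (27.9%), 4 without N_3 replicate 3 (22.1%) and 10 without N_3 replicate 2 (40.5%), which stood apart. With library sizes alone it was 8 higher and 2 lower, with the median of all genes shifted by 0.28. At 48 h the count was 22 without N_3 replicate 2 (51.4% of all genes). WIPI1 was the largest rise at both times, at 80.0, 88.3 and 81.9 CPM with N_3 and 26.3, 24.9 and 35.7 CPM with N_2 at 24 h (1.54 ± 0.17, adjusted p = 0.00133), and by 0.78 ± 0.10, adjusted p = 0.000332, at 48 h. The N_3 libraries were above all N_2 libraries. The largest falls were those of ATP6V0D1 at 24 h (-1.30 ± 0.14, adjusted p = 0.00125) and GRN at 48 h (-0.83 ± 0.11, adjusted p = 0.000274). Without N_3 replicate 2 at 24 h, WIPI1 was at 1.498 and ATP6V0D1 at -1.21, both still called. In both pairs GRN was higher at 48 h in the mixture that held macrozamin.

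Whether the CKI effect itself changed was tested by interaction. Between 24 h and 48 h in batch 1, 1 member was called (1.56% of all genes), GABARAPL1, whose effect was smaller at 48 h by 0.65 ± 0.11 log2 (adjusted p = 0.0173). Without CKI replicate 1 at 24 h, which stood apart, 4 were called (9.45% of all genes). The added genes were LAMP1 (0.26), TFE3 (-0.34) and SQSTM1 (-0.36), and GABARAPL1 was at -0.56 (adjusted p = 0.000648). Leaving out any library of UT at 48 h, or UT replicate 1 or 2 at 24 h, gave a count of 0. So did leaving out CKI replicate 2 or 3 at 48 h. These fits called 0.127 to 0.433% of all genes. Leaving out CKI replicate 3 at 24 h gave 2 (2.56% of all genes). With the replicate number as a block, the GABARAPL1 difference was -0.64 and was no longer called (adjusted p = 0.21). Between the batches at 48 h, 6 members were called (13.8% of all genes). The effect was larger in batch 2 for TFEB (0.41 ± 0.12, adjusted p = 0.0219), ATG9A (0.37 ± 0.076, adjusted p = 0.00219) and GLA (0.24 ± 0.074, adjusted p = 0.0354), and lower there for LIPA (-0.47 ± 0.071, adjusted p = 0.000124), NPC1 (-0.41 ± 0.10, adjusted p = 0.0103) and MANBA (-0.34 ± 0.11, adjusted p = 0.0408). In batch 1, CKI gave GLA 1.10, LIPA -0.34, NPC1 0.54 and ATG9A 0.62 log2, and in batch 2 1.33, -0.82, 0.12 and 0.99. This count was 3 with the replicate block. It was also 3 (8.33% of members) without UT replicate 2 or CKI replicate 2 of batch 1. The same count came without UT replicate 1, CKI replicate 1 or CKI replicate 3 of batch 2. These fits with a library left out called 9.32 to 10.3% of all genes. Without UT replicate 2 of batch 2 the count was 10 (15.5% of all genes).

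The other genes of these pathways were taken from a list of 129, of which 127 were tested. This list too was chosen with earlier results of these data known. With CKI, 51 rose and 10 fell at 24 h, 68 rose and 21 fell at 48 h in batch 1, and 79 rose and 20 fell at 48 h in batch 2. The called shares were 48.0%, 70.1% and 78.0%, beside the 38.7%, 62.5% and 68.4% of all genes, and the medians were 0.22, 0.20 and 0.25 log2. Without CKI replicate 1 at 24 h, 63 rose and 14 fell (60.6%, beside 53.0% of all genes). In all 3 comparisons 45 of them were called higher and 9 lower. The other 12 V-ATPase subunits had 7, 9 and 10 higher and 0, 0 and 1 lower in the 3 comparisons. Of 15 other membrane proteins 8, 10 and 12 rose and 1, 1 and 2 fell, and of 22 other hydrolases 7, 14 and 14 rose and 0, 3 and 5 fell. Of the other proteases, 2, 2 and 4 of 11 rose and 4, 6 and 4 fell.

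Of 28 autophagy core genes 12, 14 and 14 rose and 2, 5 and 2 fell. Among 10 autophagy receptors tested 6, 5 and 6 rose and 1, 2 and 1 fell, and among 12 genes of autophagosome fusion 4, 5 and 6 rose and 1, 2 and 2 fell. Of 11 TFEB relatives and regulators tested 3, 5 and 9 rose and 1, 1 and 1 fell, and of 6 sorting genes 2, 4 and 4 rose and 0, 1 and 2 fell. The 24 h rises without CKI replicate 1 were 12 of 15 for the membrane proteins, 11 of 22 for the hydrolases, with 3 falls, and 15 of 28 for the autophagy core, and the other lists differed by at most 1 call in each direction. The genes with the largest mean rise were LGMN, an asparaginyl endopeptidase (1.32, 1.35 and 1.10 log2 in the 3 comparisons), ATP6V0A1, a membrane subunit of the V-ATPase (1.48, 0.79 and 0.77), and ATG4A, a protease that processes ATG8 proteins (1.06, 0.91 and 0.96). The largest mean falls were those of CTSO, a cysteine protease (-1.73, -1.01 and -0.96), RRAGB, a GTPase that recruits mTORC1 to the lysosome (-1.16, -1.04 and -1.38), and CTSS, another cysteine protease (-0.71, -0.99 and -1.59). With N_2, 46 genes of the list rose and 32 fell at 24 h (61.4% called, against 66.8% of all genes), and 57 rose and 44 fell at 48 h (79.5%, against 80.4%). With N_3 it was 43 and 19 at 24 h (48.8%, against 45.9%) and 53 and 34 at 48 h (68.5%, against 64.7%). With OO it was 19 and 7 (20.5%, against 16.5%) and 63 and 30 (73.2%, against 67.8%), and with MOO 55 and 11 (52.0%, against 35.8%) and 59 and 31 (70.9%, against 60.5%). Rises outnumbered falls in each, and with N_2 the called share was below that of all genes. Without the libraries that stood apart, N_3 at 24 h had 59 and 28 (68.5%, against 68.3%) and OO 28 and 7 (27.6%, against 19.5%). Against full CKI in batch 2, 42 rose and 60 fell with N_Mac (80.3%, against 72.8% of all genes), 45 and 59 with N_Nme (81.9%, against 72.7%), 41 and 64 with N_Omt (82.7%, against 80.5%) and 48 and 62 with N_Tri (86.6%, against 77.1%).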

How the data were processed

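RNA from 54 MDA-MB-231 cultures (18 groups of 3, described by the study's design as biological replicates) was sequenced as strand-specific, oligo(dT)-selected paired-end libraries. The deposited values are raw read counts per gene, made by the authors. The submitters' processing notes name FastQC 0.11.4, Trim Galore 0.3.7, STAR 2.5.3a, Subread 1.5.2 (featureCounts), edgeR 3.22.3 and the build hg19. The strand setting of the counting was not given in the sources used here, so reads of overlapping antisense genes could be included. Promoters come from RefSeq on GRCh38.p14 and were matched by symbol, with no coordinates transferred from hg19. Each comparison was fitted on its own groups with edgeR 4.0.16 (R 4.3.3): filterByExpr, TMM factors, the quasi-likelihood test, and Benjamini-Hochberg adjustment over all genes tested, called at an adjusted p under 0.05. The standard error is the absolute log2 fold change divided by the square root of F. CPM used TMM factors over all 54 libraries. CKI at 48 h was also fitted over both batches with a batch term, and the differences between CKI effects were interaction terms. The procedure was tested on simulated data. DESeq2 1.42.0 served as an alternative, and the others were RLE factors, library sizes alone, no low-count filter, a mean of at least 1 CPM, a replicate block, all 54 libraries in 1 fit, no batch term, and each replicate left out. Leaving out the libraries that stand apart was added after seeing the data. Replicate numbers did not pair samples: in 0 of 27 comparisons did every same-numbered pair correlate above 0.1. The members and gene lists were chosen with earlier results of these data known. Library values are given for the members of each role with the largest mean change over the 3 CKI comparisons (2 per role, or 1 where the role holds 2 genes) and for those called in all 3 with at least a doubling or halving. For mixtures, the genes named are the largest called rise and fall of each comparison and genes called in opposite directions. Other members are named with fold changes. No per-sample column of the table was left unused.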

Additional observations from a re-analysis of the deposited data

Results flagged for a closer look

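The CKI effect differed between times or batches for 7 members by the interaction test (edgeR quasi-likelihood, adjusted over all genes). For GABARAPL1 it was lower at 48 h than at 24 h by a log2 difference of -0.65. The effect in batch 2 minus batch 1 was 0.24 for GLA, -0.34 for MANBA, -0.47 for LIPA, -0.41 for NPC1, 0.41 for TFEB and 0.37 for ATG9A. Groups of 3 were not tested for single outlying samples.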

How the results depend on the processing

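Replicate numbers did not pair the samples, and the counts of called members with the replicate number as a block stayed within 1.5 times of the reported ones, except for the time interaction (from 1 to 0), the batch interaction (from 6 to 3) and N_3 against CKI at 24 h (from 6 to 1). Only 1 of 27 comparisons had every sample correlating best with its own number. Other counts that moved by more than 1.5 times were these. Leaving out the libraries that stand apart gave 24 for N_3 against UT and 24 for N_3 against CKI, both at 24 h, and 4 for the time interaction. Fitting all 54 libraries together gave 17 for OO against UT at 24 h, 0 for MOO against OO over both times, 43 for N_3 against N_2 over both times (26 at 24 h, from 12), 16 for N_3 against CKI at 24 h and 1 for the batch interaction. DESeq2 gave 3 for the time interaction. The cause was not tested. With 1 replicate left out at a time, the count of members called ranged at 24 h from 11 to 22 for CKI, 15 to 28 for N_2, 10 to 24 for N_3, 5 to 16 for OO and 13 to 21 for MOO. At 48 h it ranged from 24 to 29 for CKI in batch 1, 24 to 27 for N_2, 19 to 25 for N_3, 24 to 29 for OO, 20 to 23 for MOO, 27 to 29 for CKI in batch 2, 29 to 30 for N_Mac, 28 to 31 for N_Nme, 29 to 31 for N_Omt and 28 to 32 for N_Tri. Summed over comparisons against CKI it ranged from 123 to 131 for the 4 single removals and from 58 to 78 for N_2 and N_3. It ranged from 4 to 10 for MOO against OO, 16 to 34 for N_3 against N_2, 0 to 4 for the time interaction and 3 to 10 for the batch interaction. The low value for N_3 against N_2 was without N_2 replicate 1 at 24 h. CTSB was the member whose direction turned with N_2 at 24 h, where its log2 change ranged from -0.21 without N_2 replicate 3 (edgeR adjusted p = 0.0473) to 0.26 without N_2 replicate 2. Of the members' values per comparison, 644 of 648 kept their direction and side of the threshold with RLE factors, 641 without genes under 1 CPM, 625 with DESeq2, 621 with the block, 621 without a filter, 589 with library sizes alone and 569 in the fit of all libraries. These values cover the 15 comparisons with UT, the 48 h fit over both batches and the 2 interactions. The 12 comparisons between treatments are not among them.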
